A study of Mus musculus with 6 samples.

Results

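Malat1, Neat1, Pvt1 and Kcnq1ot1 are long noncoding RNAs that stay largely in the nucleus. They were taken by their gene symbols from the deposited expression table, which gave 4 of the 41079 listed genes. All 6 libraries came from D10.G4.1 (D10), a mouse helper T cell line that is 1 clone and grows in medium with IL-2. Cold-acclimated T cells were kept for 24 h at 26°C and non-acclimated T cells for 24 h at 37°C, with 3 replicates each. Poly(A)+ RNA was sequenced, and the table gives TPM, a level of transcript per length of gene that is scaled to the same total in each library. The labels call the replicates independent experimental batches of RNA extraction (old and new) without saying which library belongs to which.

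Malat1 gathers in nuclear speckles, bodies rich in splicing factors. Neat1 is the RNA backbone of paraspeckles, bodies that assemble along its long isoform and hold RNA-binding proteins such as Nono and Sfpq. Pvt1 is a noncoding neighbour of the proto-oncogene Myc, and Kcnq1ot1 is an imprinted antisense RNA that silences genes around Kcnq1 on the paternal chromosome in development.

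All coordinates are those of the file, on the mouse genome GRCm39. Malat1 (ENSMUSG00000092341) lies at chr19:5845718-5852700 on the minus strand and is counted over 6983 bases. Neat1 (ENSMUSG00000092274) lies 22.0 kb from it at chr19:5874736-5895508, on the same strand, and is counted over 20773 bases. In both, as in Kcnq1ot1 (ENSMUSG00000101609, chr7:142766848-142850284, minus strand, 83437 bases), the counted length equals the span of the gene, so the gene is counted as 1 block without introns. Pvt1 (ENSMUSG00000097039, chr15:61909835-62132064, plus strand) is spliced, and 5062 bases of its 222230-base span are counted. Kcnq1ot1 lies inside Kcnq1 on the opposite strand. The libraries mark strand, but the strand setting of the counting is not given in the sources used here, so reads of the overlapping genes may not be fully told apart.

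The 3′ ends matter for these measurements, because Malat1 and the long isoform of Neat1 are cut by RNase P and end in an encoded A-rich tract held in a triple helix, not in the usual poly(A) tail, while the libraries were selected for poly(A). Both ends are shown as DNA, 5′ to 3′, with the U-rich motifs TTTCTTTT and GGTTTTGCTTTT and the A tract in capitals, followed by mascRNA, the small RNA that is released from the end of Malat1.
Malat1, chr19:5846010-5846114, minus strand: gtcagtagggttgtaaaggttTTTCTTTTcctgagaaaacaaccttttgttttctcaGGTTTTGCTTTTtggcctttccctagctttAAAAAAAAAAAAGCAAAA
Neat1, chr19:5874736-5874840, minus strand: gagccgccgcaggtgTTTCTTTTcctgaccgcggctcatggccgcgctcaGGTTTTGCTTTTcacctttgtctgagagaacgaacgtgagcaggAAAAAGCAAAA
mascRNA, chr19:5845952-5846009, minus strand: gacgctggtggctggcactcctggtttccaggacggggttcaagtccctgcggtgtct

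The A tract of Malat1 reaches 12 uninterrupted A bases, which was the one run of at least 10 along the whole gene. The longest run of A in Neat1 was 7 bases, and its A tract coincides with the listed end of the gene. Kcnq1ot1 held 9 runs of at least 10 A bases, the longest of 41. The mascRNA gene, 58 bases long, was listed at 0 TPM in all 6 libraries. It lies inside the listed span of Malat1 on the same strand, and the libraries were selected for poly(A). The 0 therefore does not show that mascRNA was absent. Neat1 also makes a short isoform that ends early at an ordinary poly(A) signal. The last 50 bases of its annotated transcript (GENCODE, GRCm39) are shown with the AATAAA hexamer in capitals.
Short Neat1, chr19:5892327-5892376, minus strand: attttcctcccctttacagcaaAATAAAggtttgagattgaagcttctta

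The TPM of Neat1 is a gene-level value, so the short and the long isoform could not be separated.

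The promoters of Malat1, the most abundant of the 4 by mean TPM, and of Kcnq1ot1, the least abundant, whose conditions did not overlap (values below), are shown. Each window covers 250 bases before the listed start and 50 bases from it onward. Capitals mark matches, on either strand, to 7 motifs that were searched. They were the CCAAT box, the TATA motif TATAAA, the GC box GGGCGG, the E-box CACGTG, the cAMP response motif TGACGTCA, the heat shock type motif GAANNTTC and the core ACGTG, which also lies inside the E-box.
Malat1, chr19:5852651-5852950, minus strand: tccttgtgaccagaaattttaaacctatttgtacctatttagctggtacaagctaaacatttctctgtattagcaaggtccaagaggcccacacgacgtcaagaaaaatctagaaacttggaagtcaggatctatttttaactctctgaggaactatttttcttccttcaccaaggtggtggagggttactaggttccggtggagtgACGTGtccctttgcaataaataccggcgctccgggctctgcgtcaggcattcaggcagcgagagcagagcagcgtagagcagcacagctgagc
Kcnq1ot1, chr7:142850235-142850534, minus strand: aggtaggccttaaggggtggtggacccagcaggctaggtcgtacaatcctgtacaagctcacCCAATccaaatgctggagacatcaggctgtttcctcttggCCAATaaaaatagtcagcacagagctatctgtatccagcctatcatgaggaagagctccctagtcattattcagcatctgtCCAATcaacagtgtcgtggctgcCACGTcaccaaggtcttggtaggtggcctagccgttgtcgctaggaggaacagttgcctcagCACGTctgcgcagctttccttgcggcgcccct

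Malat1 held 1 ACGTG, 43 bases before its start, a motif present in 18.0% of the 40997 promoter windows of the listed genes. Kcnq1ot1 held 3 CCAAT (37.7% of windows) and 2 ACGTG. Pvt1, whose window is not printed, held TGACGTCA 2 bases after its start, a motif found in 1.53% of windows. GAANNTTC (7.98% of windows) and CACGTG (6.32%) had no match in the windows of these 3 genes. TATAAA was present in 15.8% of all windows and GGGCGG in 27.5%. These matches describe letters and show no binding. The windows rest on the file's starts. GENCODE lists starts further upstream, at chr19:5853602 for Malat1, chr15:61888639 for Pvt1 and chr7:142850327 for Kcnq1ot1. Windows at those starts were not searched.

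The read numbers behind the TPM could be recovered, since the values of a gene were whole multiples of a common step. The libraries held between 16899606 and 31290821 reads on genes. T cell markers were checked first. Cd3e, Cd3g, Cd247, Lck and Gata3 were present in all 6 libraries, whereas Thy1 was listed at 0 throughout and Cd5 was at or near 0. Cd4 was 310 and 328 TPM in replicate 3 but between 0.0351 and 1.30 TPM in replicates 1 and 2, which goes against the labelled CD4+ type in those 4 libraries. Trac, the T cell receptor alpha constant gene, was 14.96 and 12.8 TPM in replicate 2 against 129 to 207 TPM elsewhere. Also lowest in replicate 2 were Cd3d (64.3 and 78.6 TPM against 240 to 332 TPM) and Cd28 (7.35 and 5.61 TPM against 27.9 to 54.5 TPM). Of 10 tested T cell markers, 1 was called lower at 26°C, the IL-2 receptor gene Il2ra (log2 fold change -2.56), and 0 higher (also 0 in voom and at an unadjusted p under 0.05). Summed markers of CD8 T and NK cells reached 0.225 TPM at most, and those of B cells 1.11 TPM. Summed macrophage and monocyte markers ranged from 2.46 to 15.9 TPM at 37°C and from 2.69 to 21.2 TPM at 26°C, with the highest values in replicate 3. Hba-a1, an alpha globin gene, ranged from 60.8 to 485 TPM, while Hbb-bs and Hbb-bt were at 0. These differences followed the replicate number at both temperatures, and their part in the results was not tested. The levels are therefore given by replicate, and the tests on each RNA with and without replicate 3.

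Neat1 was lower in all cold-acclimated libraries. Its level was 10.3, 10.3 and 8.14 TPM in non-acclimated replicates 1, 2 and 3, and 1.38, 3.32 and 2.14 TPM in the cold-acclimated ones. Every library at 26°C was below every library at 37°C, as was the case for 31.4% of the tested genes, while 9.69% were without overlap in the other direction. The mean fell from 9.60 ± 1.27 TPM (SD, n = 3) to 2.28 ± 0.979 TPM (SD, n = 3), to 23.8% of its 37°C level. Within replicates, the level at 37°C was 7.50, 3.10 and 3.81 times that at 26°C. These values rested on 1473, 1760 and 2033 reads at 37°C and on 248, 621 and 453 reads at 26°C, and the 95% Poisson interval of the lowest library ran from 1.21 to 1.56 TPM, which covers counting error only. In bulk samples such as these, a lower level per cell cannot be told apart from fewer cells that express the gene.

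Cold-acclimated T cells were compared with non-acclimated ones in limma on log2(TPM + 1), over 12227 genes whose TPM averaged 1 or more. A gene was called when its Benjamini-Hochberg adjusted p was under 0.05 and its level changed by 1 or more on the log2 scale. Neat1 was called lower, with a log2 fold change of -1.73 ± 0.31 (SE) and adjusted p = 0.0126 in limma. It was the single call among the 3 members tested, in a comparison where 16.0% of all tested genes were called lower and 2.63% higher. Of all tested genes, 6.84% had a log2 fold change below that of Neat1. Among the 1395 tested genes typed as ncRNA in the file, 177 were called lower, 58 were called higher, and 61 had a log2 fold change below that of Neat1. On the TPM scale the middle of all tested genes lay at -0.34, and Neat1 stood at -1.39 relative to it. Scaled by the median of ratios, which moved that median to 0.02, Neat1 was still called lower (log2 fold change -1.41, limma adjusted p = 0.0277), while the shares of all genes called were 8.8% lower and 6.56% higher. With the replicate number as a block, which called 21.9% of genes lower and 3.75% higher, Neat1 remained called and Malat1 and Pvt1 uncalled.

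The call on Neat1 held without replicate 3 (-1.82, limma adjusted p = 0.0142) and without the cold-acclimated library of replicate 3 (-1.72, limma adjusted p = 0.0134). It was lost without cold-acclimated replicate 1 (-1.52, limma adjusted p = 0.0538), without non-acclimated replicate 1 (-1.67, limma adjusted p = 0.0564) and without non-acclimated replicate 2 (-1.68, limma adjusted p = 0.0615). It was also lost without both libraries of replicate 1 (-1.47) or of replicate 2 (-1.90), fits that called 0 genes in all. In each of these fits Neat1 was lower at 26°C, and it was lower within all 3 replicates, those with Cd4 near 0 included.

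**Figure D1:**
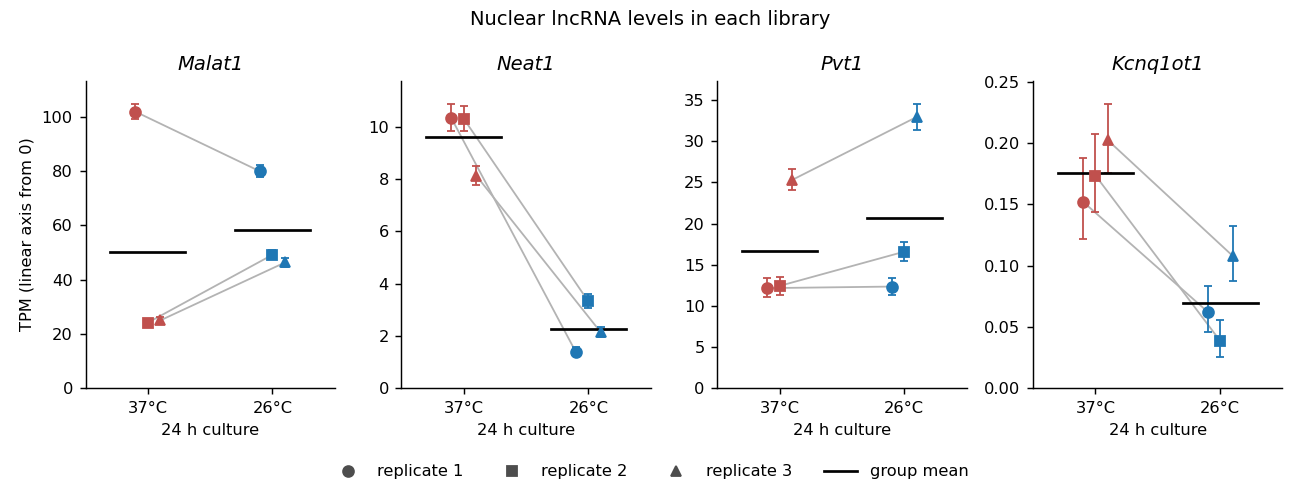
TPM (linear axes from 0) of each lncRNA in each library after 24 h at 37°C or 26°C. Points are libraries with 95% Poisson intervals, grey lines join libraries of the same replicate number, and black bars are group means (n = 3). All Neat1 libraries at 26°C, up to 3.32 TPM, sit below all those at 37°C, from 8.14 TPM, while Malat1 and Pvt1 overlap between temperatures.

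Malat1 was the most abundant of the 4 RNAs at both temperatures by mean TPM, and varied more between replicates than between temperatures. Its level was 102, 24.1 and 24.96 TPM at 37°C and 79.8, 49.1 and 46.3 TPM at 26°C. Replicate 1 was the highest at both temperatures, and the conditions overlapped. The means were 50.3 ± 44.6 TPM and 58.4 ± 18.6 TPM (SD, n = 3), with coefficients of variation of 88.7% and 31.8%. Within replicates, the ratio of 26°C to 37°C was 0.784 in replicate 1, 2.04 in replicate 2 and 1.85 in replicate 3, so the direction was shared by the latter pair alone. The log2 fold change was 0.50 ± 0.55 (SE), which did not pass the test (limma adjusted p = 0.55). Without non-acclimated replicate 1, which alone stood at 102 TPM, it was 1.17 (limma adjusted p = 0.0737), and without replicate 3 it was 0.32 and did not pass either. Of all tested genes, 86.8% had a lower log2 fold change than Malat1.

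Pvt1 was 12.2, 12.4 and 25.3 TPM at 37°C and 12.4, 16.6 and 33.0 TPM at 26°C. Replicate 3 was the highest at both temperatures and the conditions overlapped. The means were 16.6 ± 7.51 TPM and 20.6 ± 10.9 TPM (SD, n = 3), and the ratios within replicates were 1.02, 1.33 and 1.30. The log2 fold change of 0.26 ± 0.43 (SE) did not pass the test (limma adjusted p = 0.70). Leaving out cold-acclimated replicate 3 turned it to -0.12, and leaving out both libraries of replicate 3 gave 0.21, neither of which passed.

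Kcnq1ot1 was the least abundant of the 4. Its level was 0.152, 0.174 and 0.202 TPM at 37°C and 0.0623, 0.0386 and 0.108 TPM at 26°C. Every cold-acclimated library was below every non-acclimated one, as was the case for 31.8% of the 12990 genes with a mean of at least 10 recovered reads. The means were 0.176 ± 0.0252 TPM and 0.0697 ± 0.0353 TPM (SD, n = 3), a 2.53-fold difference. Within replicates the level at 37°C was 2.44, 4.49 and 1.87 times that at 26°C. Because the gene is long, these levels rested on 87, 119 and 203 reads at 37°C and on 45, 29 and 92 reads at 26°C, and the 95% Poisson intervals of replicate 3 ran from 0.175 to 0.232 TPM and from 0.0871 to 0.133 TPM.

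Kcnq1ot1 was below the TPM minimum of the limma fit, so the recovered reads were tested with limma voom over those 12990 genes, an analysis added after the data were seen. The log2 fold change was -1.44 ± 0.46 (SE) with a voom adjusted p = 0.0597, which missed the threshold. In that fit 16.6% of genes were called lower. With the replicate number as a block it was called lower (-1.37 ± 0.40, voom adjusted p = 0.0242), as were 26.0% of all genes. It was also called without cold-acclimated replicate 3 (-1.84, voom adjusted p = 0.0291) and without replicate 3 (-1.72, voom adjusted p = 0.0268). The same exclusions raised the count of all genes called lower in limma from 1954 to 2725 and 3088. Leaving out any other single library gave no call on Kcnq1ot1 (voom adjusted p from 0.107 to 0.198). It was also uncalled without both libraries of replicate 1 (-1.51, voom adjusted p = 0.282) or of replicate 2 (-1.10). The median of ratios gave -1.01 (voom adjusted p = 0.136) with 8.64% of genes called lower. The direction was the same in these fits and in all 3 replicates, and the call depended on the fit. The host gene Kcnq1 was listed at 0 to 0.124 TPM, and how its reads were kept apart was not tested.

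**Figure D2:**
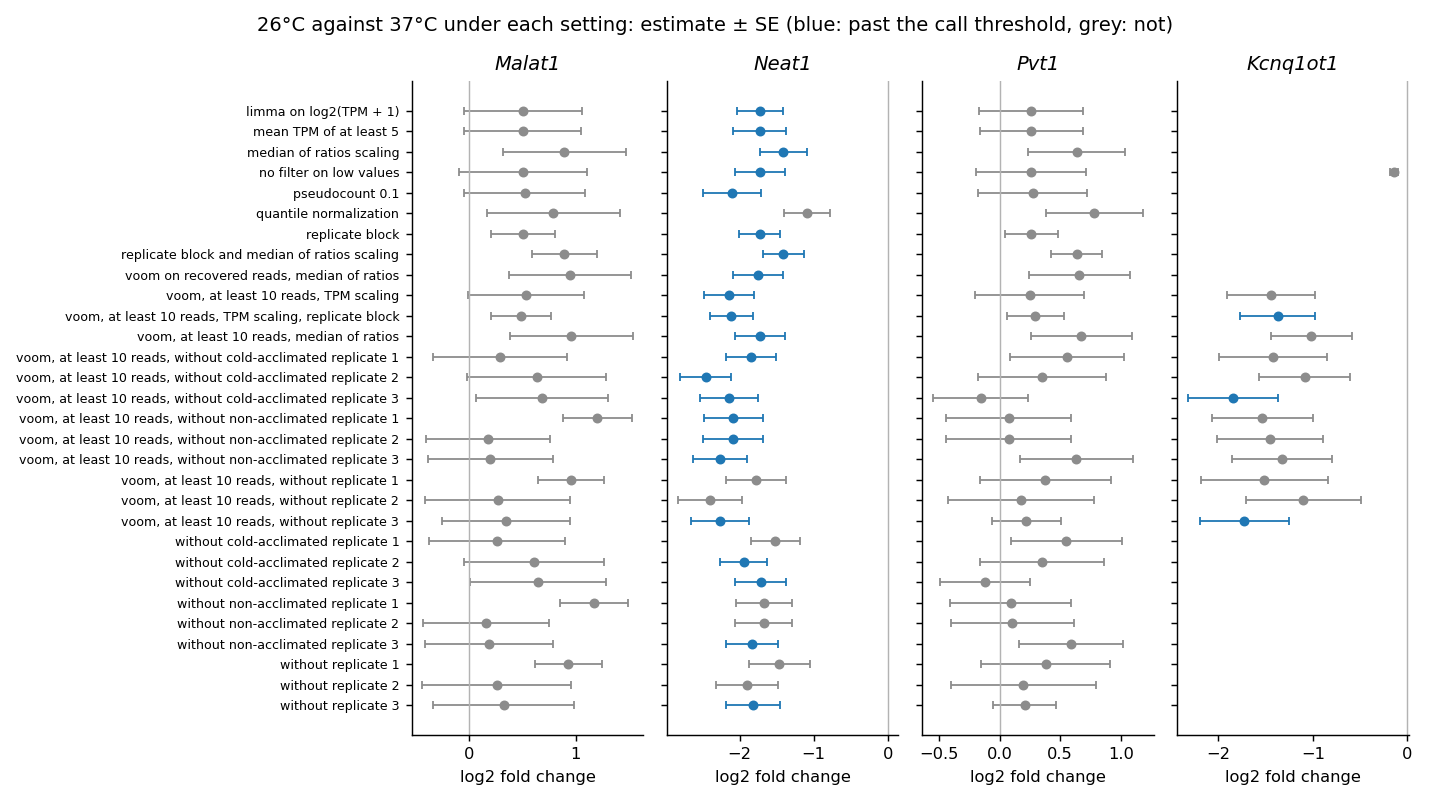
Log2 fold change (26°C against 37°C, x axis) of each lncRNA under each setting (y axis), as estimate ± SE, with settings past the call threshold in blue and others in grey. Neat1 is below 0 in every fit, from -2.46 to -1.09, and Malat1 and Pvt1 pass in none. Kcnq1ot1 is called in 3 voom fits, and its value near 0 with no filter is on the log2(TPM + 1) scale, where low genes move little.

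Since TPM is given per counted length, the order of the RNAs by listed TPM could be read within each library. This need not be their order of abundance. Neat1 is counted over 20773 bases while its short transcript spans 3180, and poly(A) selection may miss part of Malat1 and long Neat1. At 26°C the order of TPM was Malat1, Pvt1, Neat1 and Kcnq1ot1 in all 3 libraries. At 37°C, Malat1 exceeded Pvt1 in replicates 1 and 2, but replicate 3 had 24.96 TPM of Malat1 and 25.3 TPM of Pvt1, and these neighbours in the order overlapped across libraries. Neat1 followed Pvt1 at 37°C at 0.851, 0.830 and 0.322 times its level, and at 0.112, 0.200 and 0.0648 times at 26°C.

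Ratios between the RNAs inside a library do not depend on scaling between libraries. For the 6 pairs, log2 ratios were compared with an exact two-sided permutation test, which cannot go below p = 0.1 with 3 libraries against 3. It is the exact p given here, and it does not use the pairing by replicate number. An exact sign-flip test on the differences within the 3 replicates uses the pairing and cannot go below p = 0.25. The ratio of Malat1 to its neighbour Neat1 was 9.84, 2.34 and 3.07 at 37°C and 57.8, 14.8 and 21.7 at 26°C. It rose within every replicate, the conditions did not overlap, and the log2 difference of 2.68 had the smallest possible exact p = 0.1 (0.2 after Benjamini-Hochberg adjustment over the 6 pairs). Neat1 against Pvt1 (log2 difference -2.43) and Pvt1 against Kcnq1ot1 (1.73) also did not overlap and had the same exact p. Pvt1 was 80.0, 71.6 and 125 times Kcnq1ot1 at 37°C and 198, 430 and 305 times at 26°C. The other 3 pairs overlapped between the conditions. For Malat1 against Kcnq1ot1 the log2 difference was 1.97, with a rise within all 3 replicates (exact p = 0.2). For Neat1 against Kcnq1ot1, both of which were lower at 26°C, the log2 difference was -0.70 (exact p = 0.4), and for Malat1 against Pvt1 it was 0.25 (exact p = 0.8) and changed sign when 1 library was left out.

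**Figure D3:**
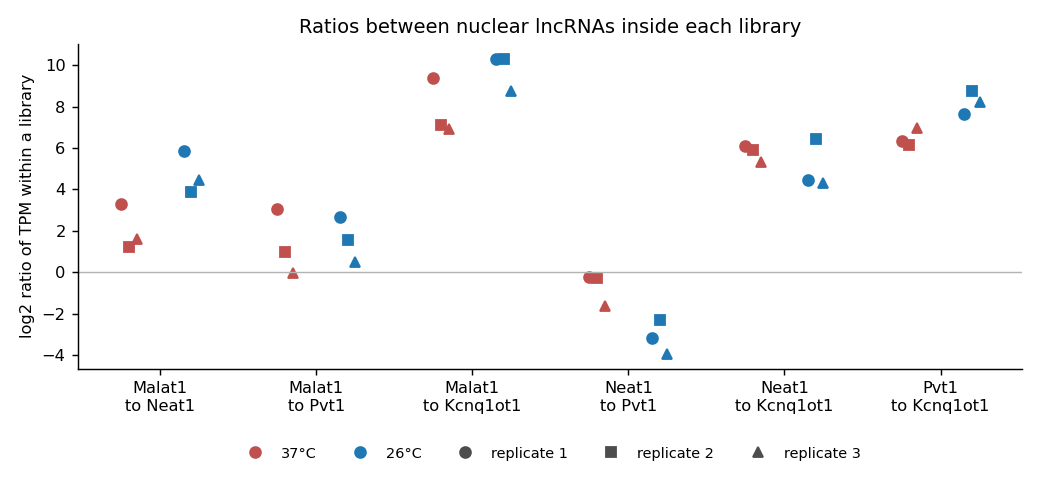
Log2 ratio of TPM (y axis) for each pair of lncRNAs inside each library, at 37°C (red) and 26°C (blue), with symbols for the replicates. Malat1 to Neat1 lies above all 37°C libraries in every 26°C library, with a difference of 2.68 between the means, and Neat1 to Pvt1 lies below them, with -2.43.

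Proteins of paraspeckles, which form on Neat1, and of nuclear speckles, where Malat1 gathers, were described from lists. For the lists below, counts at an unadjusted p under 0.05 and in voom are also given. The share of all genes at that unadjusted threshold was not counted, nor the share called higher in voom. Those counts therefore have no background to be read against. In voom, 16.6% of all genes were called lower. Of 27 tested paraspeckle genes, 2 were called lower (7.41%) and 0 higher, against 16.0% and 2.63% of all tested genes. Their median log2 fold change was -0.20 against -0.34 for all genes. At an unadjusted p under 0.05, 4 were higher and 6 lower, and voom called 1 higher and 2 lower. With the median of ratios 1 was lower and 4 were higher (8.8% and 6.56% of all genes). With the replicate block 3 were lower and 2 higher (21.9% and 3.75% of all genes). Without replicate 3 the counts were 4 and 1, in a fit that called 3088 genes lower and 653 higher. Nono, a core paraspeckle protein, fell from 490, 497 and 486 TPM to 159, 156 and 292 TPM (-1.34 ± 0.29, limma adjusted p = 0.0205), and Rbm12, an RNA-binding protein, fell with a log2 fold change of -2.35. Pspc1, a partner of Nono, was lower without overlap but did not pass (-0.64, limma adjusted p = 0.114). Sfpq, the third protein of that family, had a log2 fold change of 0.35 and overlapped. The cold-inducible RNA-binding protein genes Rbm3 (0.49, limma adjusted p = 0.557) and Cirbp (1.59, limma adjusted p = 0.0553) were on the same list and did not pass. Cirbp was 62.4, 53.6 and 16.2 TPM at 37°C and 122.8, 135 and 94.7 TPM at 26°C, without overlap.

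Of 38 tested nuclear speckle genes, which make up the bodies where Malat1 resides, 1 was called higher and 3 lower, with a median of 0.33. These are 2.63% and 7.89% of the list, against 2.63% and 16.0% of all tested genes. The count was 8 higher and 1 lower with the median of ratios, which called 6.56% of all genes higher and 8.8% lower. At an unadjusted p under 0.05, 7 were higher and 4 lower, and voom called 1 higher and 3 lower. Srsf5, a splicing factor, rose from 298, 287 and 386 TPM to 554, 868 and 1098 TPM (1.33 ± 0.30, limma adjusted p = 0.0234). Srsf1 fell by 1.63 on the log2 scale, and the SR protein kinase genes Srpk1 and Srpk2 had log2 fold changes of -1.35 and -1.04. Son and Srrm2, the scaffold proteins of speckles, had 0.32 and 0.02 and overlapped.

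Of 12 tested genes for the processing and stability of the Malat1 3′ end, 1 was called higher (8.33%). Of all tested genes, 2.63% were called higher and 16.0% lower. None of the 12 was called lower (0 at an unadjusted p under 0.05 in limma, 0 in voom, 1 with the block). The higher gene was Rpp38, a subunit of RNase P and MRP (1.07 ± 0.28, limma adjusted p = 0.0342). Elac2, which cuts mascRNA at its 3′ end, had 0.12, and Mettl16, which binds the triple helix, had -0.61, with overlap in both. Of 26 tested genes of nuclear RNA decay, 2 were called higher (7.69%) and 0 lower in limma, against 2.63% and 16.0% of all tested genes. At an unadjusted p under 0.05, 5 were higher and 3 lower, and voom called 2 higher and 0 lower. The block called 2 higher and 1 lower (3.75% and 21.9% of all genes). Without replicate 3 the counts were 1 higher and 2 lower, in a fit that called 653 genes higher and 3088 lower. Dis3, an exosome nuclease, rose from 54.0, 87.5 and 162 TPM to 242, 258 and 303 TPM (1.53 ± 0.39, limma adjusted p = 0.0324), and Mphosph6, an exosome cofactor, had 1.14. The nuclear exosome subunit Exosc10 (0.24) and the helicase Mtrex (0.23) did not pass.

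Around Neat1 and Malat1, 6 of 15 tested neighbours were called lower and 0 higher in limma, with a median of -0.53, against 16.0% and 2.63% of all tested genes. At an unadjusted p under 0.05, 7 were lower and 0 higher, without a share of all genes to compare. In voom 6 were called lower (16.6% of all genes) and 0 higher. The median of ratios called 2 lower, against 8.8% of all genes. Without replicate 3, 7 were lower and 1 was higher, in a fit that called 3088 genes lower and 653 higher. Frmd8, which starts upstream of Neat1 and ends 5.49 kb from it, fell from 81.7, 53.9 and 84.1 TPM to 8.77, 2.88 and 37.3 TPM (-2.69 ± 0.74, limma adjusted p = 0.0414). Sipa1 (-2.28), Ehbp1l1 (-1.81) and Capn1 (-1.31) were among the others. The ratio of Neat1 to Frmd8 had log2 values between -3.37 and -2.39 at 37°C and between -4.13 and 0.21 at 26°C, and these overlapped.

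Around Pvt1, 0 of 8 tested neighbours were called in limma or in voom. Of all tested genes, limma called 16.0% lower and 2.63% higher. At an unadjusted p under 0.05, 1 neighbour was higher and 1 lower, and the block called 1 lower (21.9% of all genes). Gsdmc had the most negative value without passing (-1.50, limma adjusted p = 0.323). Myc, which ends 47.6 kb upstream of Pvt1, was 168, 413 and 621 TPM at 37°C and 369, 873 and 430 TPM at 26°C (0.56 ± 0.53, limma adjusted p = 0.482). Myc was higher at 26°C in replicates 1 and 2 and lower in replicate 3, where Pvt1 was higher. Among 8 tested genes of the Myc network, 1 was called lower (12.5%, against 16.0% of all genes) and 3 with the block (21.9% of all genes). The former was Mxd3 (-2.08), which encodes a Max-binding repressor.

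Around Kcnq1ot1, 4 of 8 tested neighbours were called lower in limma, with a median of -1.19, against 16.0% of all tested genes. With the median of ratios 2 were lower (8.8% of all genes), with the block 5 (21.9%), and 0 were higher in either or in voom. Osbpl5, a lipid transfer protein gene of the imprinted cluster, fell from 15.1, 13.6 and 21.8 TPM to 2.57, 3.10 and 3.53 TPM (-2.11 ± 0.28, limma adjusted p = 0.00740), and Nadsyn1, Dhcr7 and Cars1 had -2.36, -1.63 and -1.23. The imprinted gene Cdkn1c was listed at 0 in all 6 libraries, so no change in it could be measured. Of 20 tested genes for chromatin factors used in such silencing, 6 were called lower and 0 higher in limma (16.0% and 2.63% of all tested genes), with 8 and 0 at an unadjusted p under 0.05, and 7 and 0 in voom. Ezh2, the Polycomb methyltransferase, fell from 199, 216 and 173 TPM to 21.2, 9.64 and 74.6 TPM (-2.91 ± 0.63, limma adjusted p = 0.0212). Ezh1 (-2.25), Ehmt1 (-1.46) and Cbx8 (-1.59) were also called, and Ehmt2 (-0.53) was not. Dnmt1, the maintenance DNA methyltransferase, had -2.47 and stood at the threshold without passing.

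**Figure D4:**
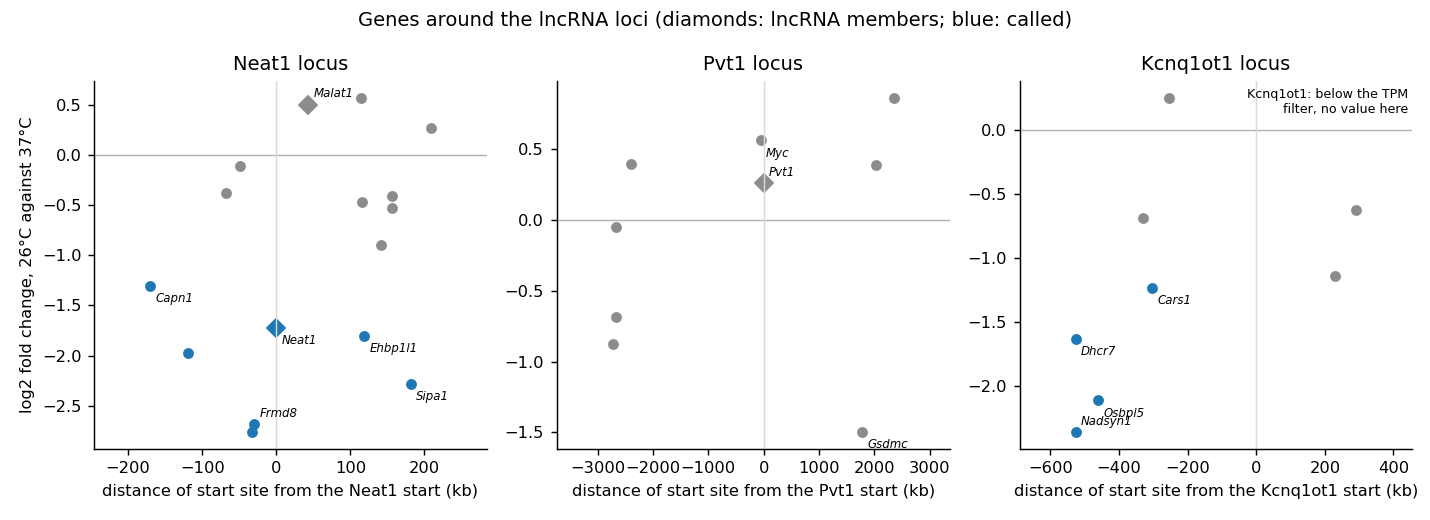
Log2 fold change (26°C against 37°C, y axis) of tested genes from the neighbour lists against the distance of their start site from that of Neat1, Pvt1 or Kcnq1ot1 in kb (x axis, positive in the direction of transcription of the lncRNA). Diamonds are the lncRNAs and blue marks called genes, and the genes named in the text are labelled. Malat1 (0.50) and Neat1 (-1.73) lie apart, and Frmd8 (-2.69) lies close to Neat1.

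Known triggers of Neat1 transcription and stress reporters were a further list of 19 tested genes, of which 3 were called lower and 0 higher in limma. The 3 are 15.8% of the list, against 16.0% of all tested genes. At an unadjusted p under 0.05 the counts were 4 and 0 and in voom 3 and 0. They were 6 and 0 with the block (21.9% of all genes lower). They were also 6 and 0 without replicate 3, in a fit that called 3088 genes lower. The list median was -0.12. The genes were Irf3, an antiviral transcription factor (-2.05), Trp53, which encodes p53 (-1.74), and the kinase gene Pdk1 (-1.08). Trp53 fell from 160, 182 and 223 TPM to 47.2, 35.5 and 99.5 TPM. The p53 target Cdkn1a (-1.04, limma adjusted p = 0.369), the heat shock factor gene Hsf1 (-0.09) and the stress factor gene Atf4 (0.42) overlapped between the conditions.

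A further list held other known noncoding RNA genes, of which 19 were tested. The file types 2 of these as protein coding and 1 as snRNA. Among the 19, 2 were called lower (10.5%) and 0 higher in limma, against 16.0% and 2.63% of all tested genes. Their median was -0.24. At an unadjusted p under 0.05, 5 were lower and 2 higher, and voom called 2 lower and 0 higher. The block called 4 lower and 1 higher (21.9% and 3.75% of all genes). Oip5os1 (also known as Cyrano) fell from 81.6, 79.7 and 43.1 TPM to 13.5, 11.3 and 8.34 TPM (-2.49 ± 0.33, limma adjusted p = 0.00735), further below 0 than Neat1. Dubr fell from 39.8, 20.7 and 21.6 TPM to 8.60, 4.71 and 8.42 TPM (-1.76 ± 0.35, limma adjusted p = 0.0172). Scaling by the median of ratios called 8.8% of all tested genes lower and 6.56% higher. Under the median of ratios the counts were 2 lower and 1 higher for these RNAs, 2 lower and 0 higher for the Neat1 triggers, 4 lower and 0 higher for the silencing factors, 0 lower and 4 higher for RNA decay, 0 lower and 2 higher for the Malat1 3′ end, and 0 lower and 1 higher around Pvt1.

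The genes whose log2(TPM + 1) followed each RNA most closely over the 6 libraries, among 9742 genes averaging 5 TPM or more, differed between the 4. For Malat1 they were Snord65, Rnaset2b and Gm5148, with Pearson r of 0.997, 0.990 and 0.989, and each was highest at 37°C in replicate 1. For Neat1 they were Lyrm9, St8sia4 and Casd1 (r = 0.996 in each), all lower at 26°C. For Pvt1 they were Mmgt1, Rhox2h and Mief1 (0.991, 0.986 and 0.985), all highest in replicate 3. For Kcnq1ot1, compared with 9743 genes, they were Gatb, Twf2 and Zdhhc16 (0.998, 0.998 and 0.997). Neat1 and Kcnq1ot1 had r = 0.80 and Pvt1 and Myc 0.423. These correlations describe 6 libraries that share temperature and replicate, and were not tested.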

How the data were processed

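RNA-seq libraries of 3 cold-acclimated and 3 non-acclimated D10 cultures were used. Per the labels and the study's methods, the authors trimmed reads (Trimmomatic 0.38), checked them (FastQC 0.11.7), aligned them to GRCm39 (HISAT2 2.1.0) and counted them per gene (featureCounts 1.6.3). The deposited values are TPM. Its annotation, gene lengths and strand setting are not named there. Columns of GO terms in the file were not used.

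The TPM of a gene in a library is a whole number of reads times a step. Reads came out whole within 1e-06 in 99.99% of the genes detected in any library (21193 of 21195), and each library's total gives its depth. Counting intervals are exact Poisson at 95%. limma 3.58.1 (R 4.3.3) was run with a mean-variance trend on log2(TPM + 1), over genes whose TPM averaged 1 or more, without a block. A fold change on that scale understates low genes. voom on recovered reads, with genes of at least 10 reads on average, was added after the data were seen. Count tests of other packages were not used. On simulated data with 200 changed genes of log2 size 2 among 12202 genes, limma called all 200 with the right sign and 16 others. The simulation had the same dispersion for all genes, no replicate effect and no overall shift. Its changed genes were drawn from above the TPM minimum of the fit. The real libraries differ in these points, so it does not measure the power of the fit on them.

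The replicate numbers pair the libraries: deviations from the condition means correlated at 0.48, 0.503 and 0.512 for the same number and between -0.408 and 0.0186 for different numbers. The labels call the replicates independent experimental batches of RNA extraction, and the study describes them as independently prepared.

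The members and the gene lists were chosen with earlier results of these data known. Lists came from general knowledge, and 288 of 299 entries matched. Genes named are the 4 members, a written set of 23 genes (some of these items and 1 promoter are not reported here), and of each list up to 3 called genes a direction by smallest p, plus the 3 genes most correlated with each member. Gsdmc, Cars1 and the marker genes were named outside this rule, after their values were seen or as fixed markers. Alternatives were other scalings, pseudocounts, filters, the replicate block and leaving out libraries. Python 3.11.15, numpy 2.4.6, pandas 2.3.3, scipy 1.17.1 and matplotlib 3.10.9 were used. Sequences were read from the GRCm39 genome at the file's coordinates.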

Additional observations from a re-analysis of the deposited data

How the results depend on the processing

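Neat1 was below 0 under all 18 alternatives to the main limma fit and kept its call in 12. These alternatives include voom fits on recovered reads, which kept the call. It missed the threshold with quantile normalization (-1.09, limma adjusted p = 0.0581), and leaving out libraries moved it from -1.95 to -1.47. The call was also lost without the replicate 1 pair (limma adjusted p = 0.183) and without the replicate 2 pair (limma adjusted p = 0.164), where no gene of any kind was called. Malat1 passed under none of its 18 alternatives (0.16 to 1.17 with libraries left out), and Pvt1 under none (-0.12 to 0.59 with libraries left out). Scaling moved both: Malat1 was 0.89 and Pvt1 0.64 with the median of ratios (limma adjusted p = 0.0631 and 0.0592 with the block added), and they were 0.79 and 0.78 with quantile normalization. Pvt1 was negative without cold-acclimated replicate 3 (-0.12). With the replicate block Kcnq1ot1 was called (-1.37), and leaving out libraries moved it from -1.84 to -1.09. Of its 12 alternatives, 3 called it and 9 did not. The replicate block with TPM scaling changed no other call on the members (Neat1 -1.73, limma adjusted p = 0.0078). Malat1 over Pvt1 had a log2 difference of -0.43 without non-acclimated replicate 3 and of -0.31 without cold-acclimated replicate 1, and reached 1.11 without non-acclimated replicate 1.

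Over all genes, 321 were called higher and 1954 lower. The count higher was 802 with the median of ratios, 184 with no filter, 731 with quantile normalization, 1087 with the block and median of ratios, and 767 with voom and median of ratios, and the count lower was 1076, 1121, 765 and 1122 for the same settings without the block. Leaving out libraries gave 0 to 653 higher and 0 to 3088 lower. In the lists together, leaving out the cell type markers, 4 genes were called higher and 27 lower. The number of different genes tested in these lists was not counted. These counts therefore cannot be set against the 2.63% of all tested genes called higher and 16.0% called lower. The count higher was 20 with the median of ratios, 1 with no filter, 11 with quantile normalization, 7 with the replicate block, 22 with the block and median of ratios, 21 with voom and median of ratios, and 0 to 7 with libraries left out. The count lower was 15, 15, 16 and 14 with the median of ratios, no filter, quantile normalization, and voom and median of ratios, and 0 to 41 with libraries left out. The causes were not tested. Kcnq1ot1, at 29 to 203 reads a library, had the least depth of the members. Poly(A) selection limits what the levels of Malat1 and long Neat1 stand for.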
